A study of Rattus norvegicus with 108 samples.

Results

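Genes that make or break down cyclic AMP (cAMP) and cyclic GMP were followed through droplet RNA profiles of the rat dentate gyrus. They were 5 phosphodiesterases (Pde1a, Pde4a, Pde4b, Pde4d and Pde10a) and 3 adenylyl cyclases (Adcy1, Adcy2 and Adcy8). The genes were taken by symbol, 8 of the 19127 genes in the count tables. All 8 were found, once in the table of each region.

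Adenylyl cyclases convert ATP to cAMP when a G protein or, for some members, calcium bound to calmodulin activates them, and phosphodiesterases hydrolyse the product. cAMP acts through protein kinase A, the exchange factor Epac and cyclic-nucleotide-gated channels, and protein kinase A phosphorylates the transcription factor CREB. In the hippocampus the pathway is known for its part in synaptic plasticity, and inhibitors of the PDE4 enzymes have been studied as antidepressants.

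Male Long-Evans rats, 2 months old at the start, drank fluoxetine at 18 mg per kg (FT), a selective serotonin reuptake inhibitor, or water without drug (Sham) for 6 weeks. Tissue was punched from the dorsal (dorDG) and the ventral (venDG) dentate gyrus, and each replicate pooled tissue of several animals. The groups were dorDG of FT rats in 4 replicates (numbers 1, 2, 4 and 5), and dorDG of Sham, venDG of FT and venDG of Sham rats in 5 replicates each. The labels name no genetic alteration in any group, and the study describes suspensions of whole cells and of nuclei without saying which reaction held which. Unique molecular identifiers (UMIs) were counted in 1289 dorDG and 2058 venDG cells, with 220162 to 1523540 UMIs per replicate. Among the cell barcodes, 9 occurred in more than 1 reaction. Low-ribosomal cells, those with under 2% of their UMIs in ribosomal protein genes, were 1226 of all 3347 cells (36.6%). Levels are given as UMIs per 10000 UMIs, summed over the cells of a replicate. Because such sums are bulk values, fewer cells of a type and less RNA per cell cannot be told apart in them.

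CREB binds the cAMP response element, TGACGTCA, or its shorter form, TGACG. The 250 bases before the annotated starts of the genes were searched for both on both strands in RefSeq sequences of the rat assembly GRCr8, a later build than the rn5 named in the submitters' processing notes. Windows were listed for 7 of the 8 genes, 16 windows in all, and Adcy8 had none. The full element, which reads the same on both strands, was in 0 of the 16 windows and in 531 of 33469 windows of all genes (1.59%). The short form, which the full element contains, was in 5 of the 16 windows and in 18.2% of all windows. Those 5 were windows of Pde10a (1 of 2), Pde4a (2 of 4) and Pde4d (2 of 5). A match describes the letters only. The sequences of Pde10a and Adcy1 are printed because these genes carry the differences reported here, and because one holds the short form and the other does not. Capitals mark TGACG or its reverse complement CGTCA, and both run 5′ to 3′ on the gene's strand to the base before the start.
Pde10a, chr1:54765669-54765918, minus strand: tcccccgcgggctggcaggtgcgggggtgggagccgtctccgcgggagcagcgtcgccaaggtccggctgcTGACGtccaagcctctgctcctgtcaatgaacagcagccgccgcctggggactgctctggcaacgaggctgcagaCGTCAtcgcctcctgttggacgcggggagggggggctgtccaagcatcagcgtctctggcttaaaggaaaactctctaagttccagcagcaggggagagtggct
Adcy1, chr14:86124869-86125118, plus strand: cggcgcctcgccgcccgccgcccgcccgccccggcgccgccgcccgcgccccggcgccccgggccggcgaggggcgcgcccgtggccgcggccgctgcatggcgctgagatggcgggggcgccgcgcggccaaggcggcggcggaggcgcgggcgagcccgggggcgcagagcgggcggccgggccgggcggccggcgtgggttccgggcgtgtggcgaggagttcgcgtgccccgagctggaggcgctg
The matches in the Pde10a window begin 179 and 104 bases before the start. The Adcy1 window is 88% G or C. An ATG in it opens a reading frame that runs without a stop codon to the window's end. Part of this window may therefore be coding sequence, since annotated starts were used as listed. Its lack of the short form is no statement about a promoter.

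The cell types of dorDG came first, since a gene's main source sets how a sum over cells can move. Types are those of the authors' annotation, which gives 12 names. The authors clustered the cells on the same genes, so levels by type are a description without a test. Low-ribosomal cells made up from 7.78% (Endothelial) to 80% (ExcitNeuron) of a type's cells. Levels by type were not adjusted for this share. The names were checked against marker genes. The 147 cells named InhibNeuron had Gad1, Gad2 and Slc32a1, the markers of inhibitory neurons, at 0.30, 0.22 and 0 UMIs per 10000, while Slc17a7, the glutamate transporter of excitatory neurons, stood at 3.21. These cells were also the highest of the 12 types in the granule cell genes Prox1 (1.88) and Calb1 (0.45). The other granule cell genes looked at did not follow, with C1ql2 at 0 and Dsp at 0.07 in these cells. Dsp stood at 0.10 in Granule and was highest in Mossy cells (0.15). The 72 cells named Mossy had neuronal genes at the level of glia and were the highest in the mural genes Rgs5 (4.43) and Vtn (7.89), with the mossy cell marker Calb2 at 0. The data therefore go against both names, which are used here only as the annotation's labels. ExcitNeuron cells were the highest in Slc17a7 (5.20), and the oligodendrocyte, precursor (OPC), astrocyte, microglia and endothelial names matched their markers. Granule cells stood below InhibNeuron and ExcitNeuron cells in Prox1 (0.90) and Calb1 (0.05) and were the highest in Gad1 (0.49). The granule cell gene C1ql2 was highest in them but at only 0.02. These markers do not bear out the name Granule, which is also used only as a label. Oligodendrocyte RNA was found in every type, with Mbp at 31.7 UMIs per 10000 even in the type where it was lowest. Outside Oligodend1 and Oligodend2, Mbp was highest in Granule cells (77.9).

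Adcy1, a calcium- and calmodulin-stimulated cyclase of neurons, had the largest share of its UMIs in a single annotated type among the 8 genes. It stood at 4.07 ± 1.63 UMIs per 10000 (SD, n = 6 replicates, 1.41 to 6.43) in InhibNeuron cells, which held 70.9% of its dorDG UMIs. The next types were ExcitNeuron at 1.35 ± 0.74 (n = 4) and Granule at 1.17 ± 0.99 (n = 9), and the lowest was Microglia1 at 0.110 ± 0.261 (n = 9). Only the step from InhibNeuron to ExcitNeuron exceeded the larger SD of the pair, and the other 10 neighbours in the order did not differ beyond their spread.

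The other cyclases were less unequal. Adcy8, also stimulated by calcium and calmodulin, stood at 2.76 ± 0.65 in InhibNeuron, 2.00 ± 0.62 in ExcitNeuron and 1.83 ± 0.81 in Granule cells. It continued through OPC at 1.67 ± 0.84 and AstroSub1 at 1.47 ± 0.88 to 0.617 ± 0.361 in Microglia1 and 0 in each of the 4 BergGlia replicates averaged, with 1 UMI in all BergGlia cells. The first and the last step of this order exceeded the larger SD. The last step is not resolved, since counting error allows up to 0.603 in BergGlia even at 0 UMIs, close to the Microglia1 mean. Adcy2, a cyclase insensitive to calcium and stimulated by G protein beta-gamma subunits, ranged only from 0.556 ± 0.653 in BergGlia to 1.95 ± 0.39 in InhibNeuron cells. None of its 11 neighbouring types differed beyond their spread.

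Pde4b, a cAMP-specific phosphodiesterase, was highest in the types of the oligodendrocyte lineage. Oligodend1 cells had 21.3 ± 5.4 UMIs per 10000 (n = 9, 13.1 to 29.7), Oligodend2 cells 15.2 ± 3.2 (n = 7) and OPC 10.7 ± 2.5 (n = 7). The first 2 steps of this order exceeded the larger SD, and the lower 9 did not, down to 1.81 ± 0.96 in Microglia1. Low-ribosomal cells formed 50.9% of Oligodend1 and 12.6% of Oligodend2 cells. Pooled over replicates, Pde4b stood at 46.5 in the low-ribosomal Oligodend1 cells and at 32.5 in those of Oligodend2. In the other cells of these types it stood at 15.2 and 13.6. The part of this share in the first step was not tested. Oligodend1 and Oligodend2 held 31.2% and 21.7% of its dorDG UMIs, against 9.64% in InhibNeuron cells. Pde4d, the closest relative of Pde4b here, was spread over all types without such a step, from 9.03 ± 5.64 in ExcitNeuron and 6.01 ± 3.60 in Granule to 1.45 ± 2.90 in BergGlia cells. Pde4a, the third cAMP-specific member, was sparse everywhere, at 0.913 ± 0.537 in ExcitNeuron, 0.907 ± 0.204 in InhibNeuron and 0.0605 ± 0.0809 in Oligodend2 cells.

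Pde1a, which calcium and calmodulin activate, and Pde10a, a dual-substrate enzyme best known from striatal neurons, followed the neuron-named types. Pde1a stood at 3.85 ± 2.38 in ExcitNeuron and 3.12 ± 1.06 in InhibNeuron cells, then dropped past the spread to 1.67 ± 0.63 in OPC. The last step, from Microglia1 to 0 in BergGlia, also exceeded the larger SD but is not resolved. The Microglia1 mean of 0.248 lies below the 0.603 that counting error allows in BergGlia, where 1 UMI of Pde1a was found. Pde10a stood at 2.84 ± 0.76 in ExcitNeuron and 2.41 ± 0.81 in InhibNeuron cells, with Mossy next at 1.42 ± 1.02 and no step beyond the spread. Pde10a had 0 UMIs in the 43 BergGlia cells, whose 49756 UMIs allow up to 0.603 per 10000 by counting error alone.

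**Figure D1:**
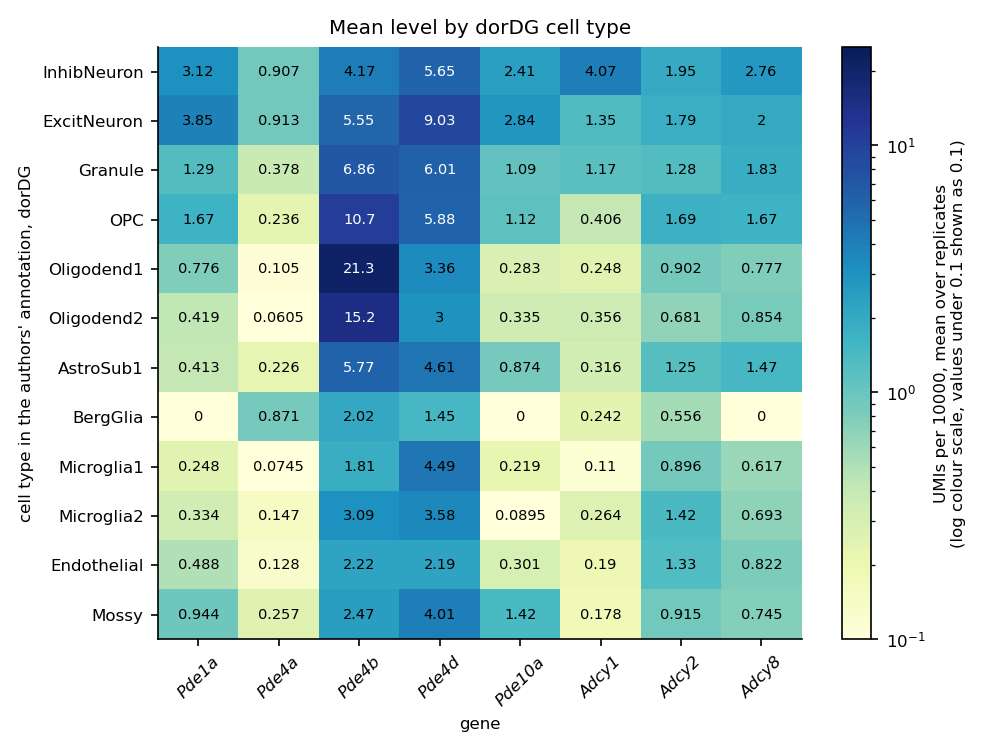
Mean level of each of the 8 genes (columns) in each dorDG cell type of the authors' annotation (rows), in UMIs per 10000 averaged over replicates, with a logarithmic colour scale. Pde4b is highest in Oligodend1 (21.3) and Adcy1 in InhibNeuron (4.07), while Adcy2 varies little.

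Each gene's nearest patterns over the 12 types were sought among 4282 genes by Pearson's r of log2 levels, as a description over 12 points that share libraries and depth. Adcy8 was closest to Il1rapl2 (0.990) and Rfx4 (0.984), Adcy1 to Unc5d (0.975) and Fam19a2 (0.966), and Adcy2 to Pld3 (0.919) and Spon1 (0.913). Pde4a was closest to Smarca4 (0.978) and ST7 (0.971), Pde1a to Sez6l (0.969) and Carm1 (0.962), and Pde10a to Gbf1 (0.968) and Ppp1r12a (0.953). Pde4b was closest to Apbb1 (0.964) and Rnf43 (0.962), and Pde4d to Pld5 (0.923) and Cirh1a (0.922).

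Whether fluoxetine moved these genes in dorDG was asked on UMI sums over all cells of a replicate. All 7 genes tested were lower in FT, with a median log2 fold change of −0.70 against −0.04 over all 4274 genes, and 3 fell by the study's thresholds (Adcy1, Adcy8 and Pde10a). Those thresholds are a log2 fold change of 0.32 or more in either direction and, in the edgeR quasi-likelihood test, an adjusted p (Benjamini-Hochberg) no higher than 0.2. The same rule called 28.6% of all genes tested in this comparison, 12.4% higher and 16.1% lower. Pde4a, with a mean under 0.5 UMIs per 10000, was not tested.

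Adcy1 stood at 0.940, 0.237, 0.336 and 0.531 UMIs per 10000 in FT replicates 1, 2, 4 and 5, and at 1.45, 0.259, 2.51, 1.15 and 1.96 in Sham replicates 1 to 5. Of the 5 Sham replicates, 4 lay above all FT replicates, and Sham replicate 2 lay among them. Its log2 fold change was −1.38 ± 0.49 (SE, edgeR adjusted p = 0.166), a fold of 0.383. Sham replicate 2 had no InhibNeuron cells, the type that held most Adcy1 UMIs.

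Adcy8 stood at 1.249, 1.07, 0.605 and 0.822 in FT and at 1.94, 1.95, 1.98, 1.17 and 1.18 in Sham. Sham replicates 1 to 3 were high, and Sham replicates 4 and 5 were below FT replicate 1. The log2 fold change was −0.74 ± 0.28 (edgeR adjusted p = 0.170).

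Pde10a stood at 0.510, 1.36, 0.487 and 0.428 in FT and at 1.23, 0.743, 2.22, 1.04 and 1.39 in Sham. FT replicate 2 was at the level of the Sham replicates and the other 3 FT replicates lay below all of them. The log2 fold change was −0.80 ± 0.35 (edgeR adjusted p = 0.186).

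Pde1a missed the threshold, at −0.70 ± 0.35 (edgeR adjusted p = 0.206), with 1.67, 0.746, 0.538 and 0.617 in FT and 1.52, 0.760, 2.45, 1.33 and 1.79 in Sham. FT replicate 1 was high and Sham replicate 2 low. Pde4b averaged 6.10 ± 0.998 in FT and 8.31 ± 1.81 in Sham (−0.38 ± 0.27), and Pde4d 3.85 ± 0.62 and 5.09 ± 1.42 (−0.31 ± 0.25). Adcy2 was the nearest to level, at 1.23 ± 0.13 and 1.36 ± 0.29 (−0.05 ± 0.21). Pde4a averaged 0.277 ± 0.056 and 0.406 ± 0.227. In 0 of the 7 tested genes were the FT and Sham replicates without overlap, where 8.21% of all tested genes were.

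**Figure D2:**
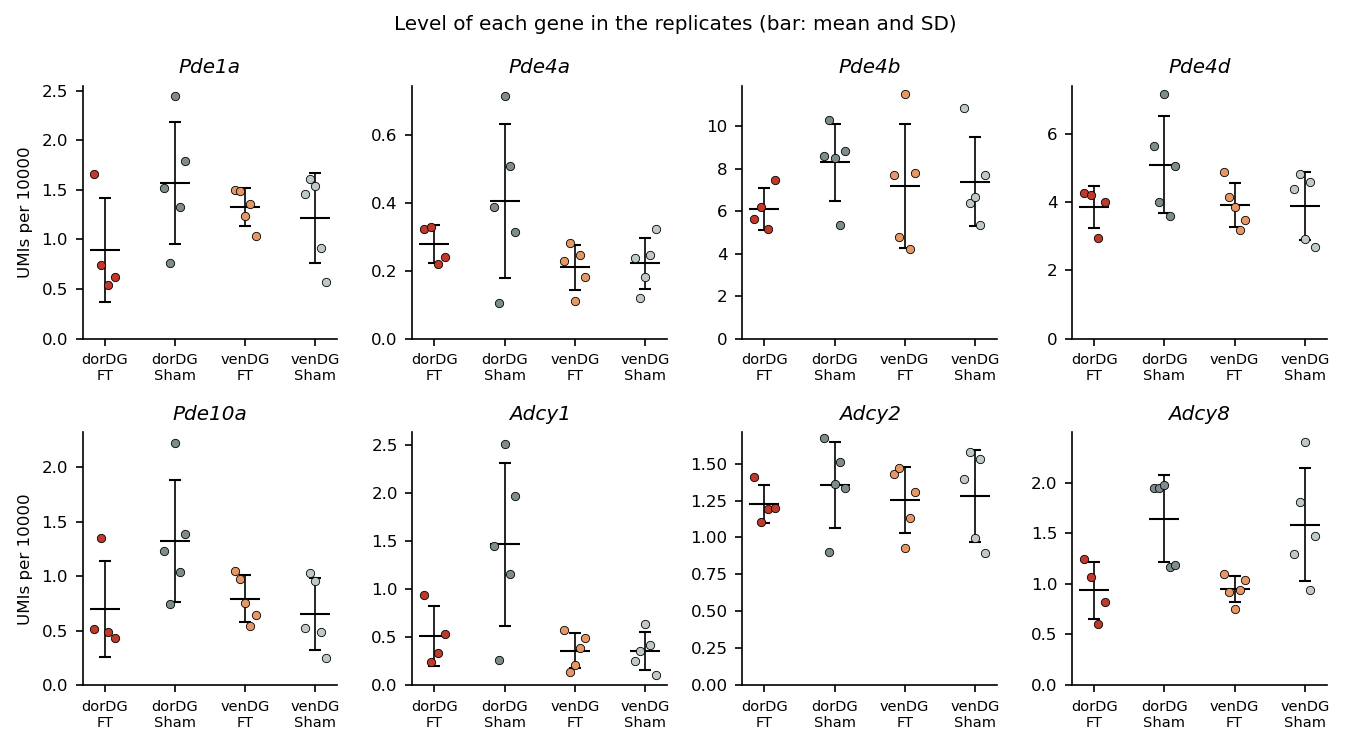
Level of each gene in each replicate (points) of the 4 groups, in UMIs per 10000, with the mean and SD as bars. In dorDG, FT and Sham overlap for every gene, and FT replicate 2 of Pde10a (1.36) and Sham replicate 2 of Adcy1 (0.259) lie apart from their groups.

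The 3 calls were all lost without FT replicate 4, FT replicate 5, Sham replicate 1, Sham replicate 3 or Sham replicate 5. So were nearly all calls of the comparison, since of all genes tested 1 was called without Sham replicate 1 and 0 in the other 4 of these fits. In those 5 fits Adcy1 was at −1.24, −1.39, −1.38, −1.16 and −1.28, Adcy8 at −0.59, −0.68, −0.68, −0.71 and −0.86, and Pde10a at −0.67, −0.63, −0.83, −0.58 and −0.81. Without FT replicate 1, Pde10a (−0.67) was lost and Pde1a (−1.18) was called, where 11.1% of all genes were. Without Sham replicate 4, 5 of the 7 and 43% of all genes were called. At an adjusted p of 0.05 edgeR called 0 of all genes, with 1086 at an unadjusted p under 0.05, while DESeq2 called 4 of the 7 at 0.2 (Adcy1, Adcy8, Pde10a and Pde1a) and 43.3% of all genes tested.

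Other quantities moved with the groups. The low-ribosomal share of a replicate's cells was 14.5 to 42.1% in FT and 31.9 to 72% in Sham, and that of InhibNeuron cells 2.54 to 9.79% and 0 to 31%. Their part in the result was not tested beyond the subsets given next. The summed level of the 4 neuronal markers was 5.38 to 11.3 UMIs per 10000 in FT and 7.24 to 31.8 in Sham. In dorDG, low-ribosomal cells had 7.89 times the Adcy1 level of the other cells, 4.11 times the Pde1a, 3.85 times the Pde10a and 3.24 times the Adcy8 level, against 1.48 times for Adcy2. These ratios pool all types, and 79.6% of InhibNeuron cells, the main source of Adcy1, were low-ribosomal. Adcy1 stood at 4.87 in low-ribosomal and 2.96 in other InhibNeuron cells, and at 1.31 and 0.09 in ExcitNeuron cells. The part of type make-up in the ratios was not tested. The genes with the steeper ratios thus included those that fell.

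The comparison was therefore repeated within subsets of cells. The subsets by annotated type were chosen after the data were seen. Among cells with at least 2% ribosomal UMIs, 0 of 6 tested genes were called by edgeR, as were 0 of all 3800 genes tested. Pde1a was at 0.24 ± 0.33, Pde10a at −0.07 ± 0.34, Pde4b at −0.05 ± 0.22 and Adcy8 at −0.38 ± 0.36. Adcy1 averaged 0.383 ± 0.194 UMIs per 10000 in FT and 0.310 ± 0.274 in Sham there, below the filter. FT replicates ranged from 0.163 to 0.580 and Sham replicates from 0.0248 to 0.594, so the groups overlapped throughout.

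Among low-ribosomal cells, Adcy1 stood at 2.47, 0.475, 0.833 and 0.771 in FT and at 3.17, 0.797, 3.44, 2.81 and 4.93 in Sham. FT replicate 1 lay above Sham replicate 2 and below the other Sham replicates, and Sham replicate 2 lay among the FT values. The log2 fold change was −1.14 ± 0.45 (edgeR adjusted p = 0.450). Pde4b was at −0.64 ± 0.33 and Adcy8 at −0.15 ± 0.25 in these cells, and edgeR called 0 of the 8 genes and 0.525% of all genes tested. Of the 512 low-ribosomal dorDG cells, 117 were InhibNeuron cells, and type make-up was not matched between FT and Sham.

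Without InhibNeuron cells, Adcy1 averaged 0.198 ± 0.062 UMIs per 10000 in FT (0.157 to 0.290) and 0.585 ± 0.331 in Sham (0.259 to 1.10), below the filter. FT replicate 1, at 0.290, was the single FT value above the lowest Sham value. Pde4b was at −0.51 ± 0.23 (edgeR adjusted p = 0.326), Adcy8 at −0.59 ± 0.32 and Pde10a at −0.50 ± 0.37, and 0 genes of the 8 were called, as were 0 of all 4084 tested.

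**Figure D3:**
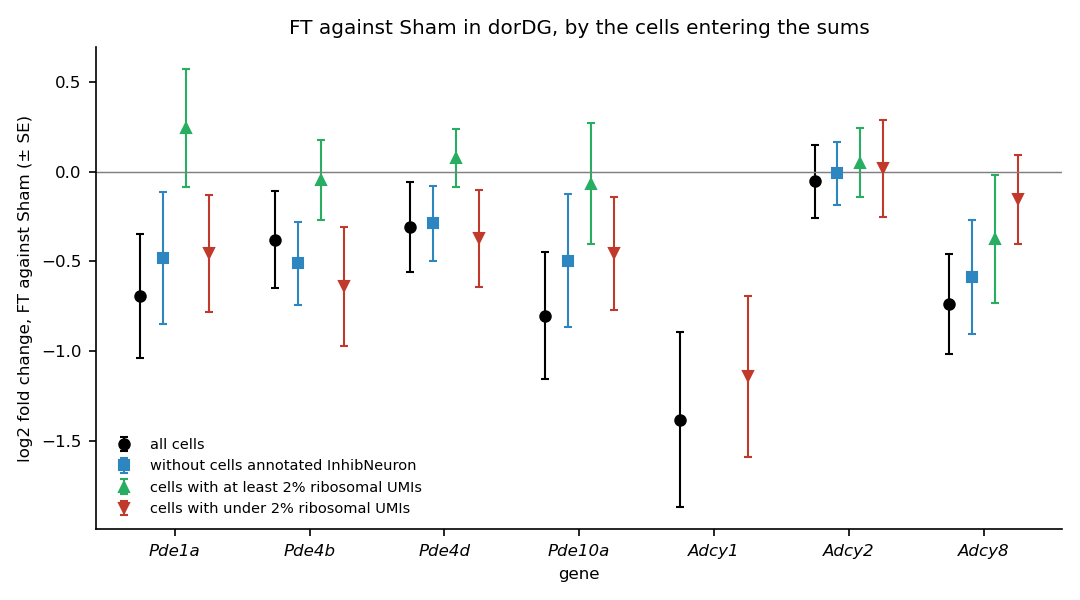
Log2 fold change, FT against Sham in dorDG, with its SE, for sums over all cells, without InhibNeuron cells, over cells with at least 2% ribosomal UMIs and over cells under 2%. Pde1a moves from −0.70 to 0.24 and Pde10a from −0.80 to −0.07 in cells with at least 2%; Adcy1 has a value only where it passed the filter and Pde4a had none over all cells.

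Within the annotated types of dorDG, 9 of 12 had enough replicates to test, and InhibNeuron, ExcitNeuron and BergGlia did not. Of the 72 pairs of a gene and a type, 45 were tested and 0 were called by edgeR, where the same rule called 5.98% of all genes in Oligodend1, 0.0581% in Microglia2, 0.029% in Oligodend2, 0.0232% in AstroSub1 and 0% in the other 5 types. DESeq2 called 1 pair, in Oligodend1, where it called 195 of all 3693 genes, and 6 of the 45 pairs were at an unadjusted p under 0.05, against 76 to 576 of all genes in a type. FT was the lower group in 34 pairs and the higher in 11, which count the same replicates more than once. In each of the 9 tested types the low-ribosomal share was lower in FT than in Sham, as at 6.12% and 19.6% in Oligodend2. Pde4b was higher in the low-ribosomal cells of each of these types except OPC (9.90 against 10.1), as at 10.9 against 1.61 in Endothelial. The part of this share in the directions was not tested.

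Pde4b in Oligodend1 cells, its main source, stood at 15.4, 20.2, 13.1 and 19.1 UMIs per 10000 in FT and at 29.7, 24.6, 27.5, 22.2 and 20.1 in Sham. Only FT replicate 2 and Sham replicate 5 overlapped. Its log2 fold change was −0.50 ± 0.23 (edgeR adjusted p = 0.305; DESeq2 adjusted p = 0.156, the pair it called). Low-ribosomal cells, which had 46.5 UMIs of Pde4b per 10000 against 15.2 in the other Oligodend1 cells, formed 28.1% of this type's cells in FT and 64.5% in Sham.

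Granule cells gave the largest Pde4b value of the tested types, at 5.28, 2.01, 2.62 and 3.09 in FT and 12.9, 10.6, 6.62, 4.90 and 13.7 in Sham (−1.32 ± 0.52, edgeR adjusted p = 0.550). FT replicate 1 alone lay above the lowest Sham value. Granule cells also had the most Mbp (77.9) outside Oligodend1 and Oligodend2, the types where Pde4b was highest. The part of oligodendrocyte RNA in these Pde4b values was not tested. Adcy1 in the same cells had 1 to 2 UMIs per FT replicate and 3 to 10 per Sham replicate (−1.65 ± 0.67, edgeR adjusted p = 0.550).

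InhibNeuron cells, the main source of Adcy1, were too few to test, with 27 FT and 120 Sham cells. Low-ribosomal cells formed 37.0% of them in FT and 89.2% in Sham. Pooled over replicates, Adcy1 stood at 4.87 in the low-ribosomal InhibNeuron cells and at 2.96 in the others. The part of this share in the values below was not tested. Adcy1 stood at 4.23 and 1.41 in FT replicates 1 and 2, and at 4.49, 4.40, 3.44 and 6.43 in Sham replicates 1, 3, 4 and 5. FT replicate 1 lay within the Sham values and FT replicate 2, with 8 UMIs, below them. When InhibNeuron, ExcitNeuron and Granule cells were pooled, all 8 genes could be tested and edgeR called 0 of them and 0 of all 4384 genes. There Adcy1 was at −0.40 ± 0.55, and Pde4b at −1.01 ± 0.39 (edgeR adjusted p = 0.401). FT stood at 1.89 to 4.44 and Sham at 4.63 to 10.6 UMIs per 10000 of Pde4b in this pool, without overlap, as for 3.76% of all genes.

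Adcy8 was lowest relative to Sham in Microglia2 (−1.81 ± 0.90, 0 to 2 UMIs per FT replicate and 1 to 5 per Sham replicate) and in Mossy cells (−1.57 ± 0.64). The Microglia2 groups did not overlap, as for 1.86% of all genes in that type, and the Mossy groups did. These rest on very few UMIs, and the edgeR adjusted p was 0.967 and 0.998.

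**Figure D4:**
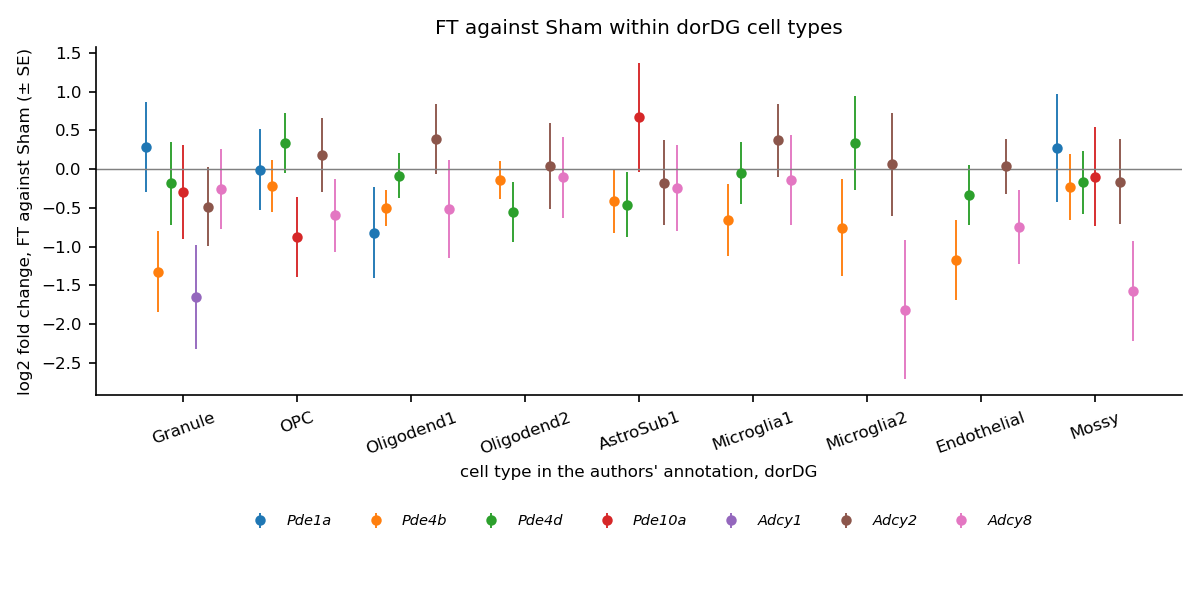
Log2 fold change, FT against Sham, with its SE, for each gene tested in each dorDG cell type. Pde4b lies below 0 in every type where it was tested, and no pair of gene and type was called by edgeR. The low-ribosomal share was lower in FT than in Sham in every tested type, and its part was not tested.

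The same question in venDG gave 0 calls by edgeR and by DESeq2 among the 6 genes tested, with 1 at an unadjusted p under 0.05. Of all 4079 genes there edgeR called 0%, DESeq2 called 22, and 237 were at an unadjusted p under 0.05. That one gene was Adcy8, at 1.10, 0.920, 0.755, 0.940 and 1.03 UMIs per 10000 in FT and 1.299, 1.81, 2.41, 0.944 and 1.47 in Sham. Sham replicate 4 was at the level of FT and the other Sham replicates were above all of FT. The log2 fold change was −0.72 ± 0.24 (edgeR adjusted p = 0.763), beside −0.74 ± 0.28 in dorDG. Omitting single replicates gave values from −0.87 to −0.54.

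The other venDG values were near level. Pde10a was at 0.30 ± 0.31, Pde1a at 0.11 ± 0.25, Pde4b at −0.04 ± 0.27, Pde4d at −0.00 ± 0.21 and Adcy2 at −0.06 ± 0.21. Adcy1 averaged 0.358 ± 0.183 UMIs per 10000 in FT and 0.352 ± 0.197 in Sham, and Pde4a 0.210 ± 0.066 and 0.221 ± 0.076, both below the filter. In none of the 6 were the groups without overlap, where 0.735% of all tested genes were. Low-ribosomal cells made up 16.9 to 50.3% of FT and 18.9 to 61.9% of Sham replicates in venDG.

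The regions were compared first in Sham rats. Adcy1 was higher in dorDG, at 1.45, 0.259, 2.51, 1.15 and 1.96 UMIs per 10000 against 0.245, 0.354, 0.636, 0.416 and 0.107 in venDG replicates 1 to 5. Only dorDG replicate 2 lay among the venDG values. The log2 difference was 2.03 ± 0.49 (edgeR adjusted p = 0.104), a fold of 4.09, and Adcy1 was the single call among 7 genes tested, where 2.24% of all genes were called. All 7 had values above 0, from 0.01 for Adcy2 up to that of Adcy1, with Pde10a next to it at 0.97 ± 0.36 (edgeR adjusted p = 0.312). None had regions without overlap, as 1.08% of all tested genes did.

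Same-numbered dorDG and venDG replicates correlated in their deviations from group means, without different-numbered pairs for comparison. With the replicate number within each treatment as a block, chosen after the data were seen, edgeR called 2 of the 7. These were Adcy1 (1.79 ± 0.37, adjusted p = 0.0514) and Pde10a (0.95 ± 0.29, adjusted p = 0.141), where 11.9% of all genes were called. Without the block, the Adcy1 call was lost without dorDG Sham replicate 1 (2.03) or 3 (1.76) and without venDG Sham replicate 1 (1.88), 4 (2.13) or 5 (1.81). Pde10a was called without dorDG Sham replicate 2 (1.09) and without venDG Sham replicate 2 (1.26) or 3 (1.11), where 11.4%, 2.18% and 5.08% of all genes were called.

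Cell make-up differed between the regions here as well. The summed neuronal markers were 7.24 to 31.8 UMIs per 10000 in dorDG Sham and 6.52 to 16.7 in venDG Sham. Among low-ribosomal cells Adcy1 was at 1.47 (edgeR adjusted p = 0.207) and not called. Among the other cells it averaged 0.310 ± 0.274 in dorDG and 0.0767 ± 0.0597 in venDG. Cell types could not be matched, since the venDG counts came without type names.

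In FT rats edgeR called 0 of the 7 genes and 0% of all genes between the regions, while DESeq2 called 0 and 2. An unadjusted p under 0.05 was reached by 0 of the 7 and 171 of all genes. Adcy1 was at 0.57 ± 0.50 and Pde1a at −0.58 ± 0.33, and the other 5 lay between −0.24 and −0.01. No gene had regions without overlap, as 2.88% of all tested genes did.

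Whether the FT effect differed between the regions was tested as an interaction. edgeR called 0 of the 7 genes and 0% of all 4161, and DESeq2 called 0 and 8, while 2 of the 7 and 404 of all had an unadjusted p under 0.05. Those 2 were Adcy1 (−1.47 ± 0.70) and Pde10a (−1.16 ± 0.52), both with an edgeR adjusted p of 0.505. With the replicate number within treatment as a block, Pde10a was called (−1.23 ± 0.43, adjusted p = 0.192, where 9.2% of all genes were called) and Adcy1 was not (−1.39 ± 0.55, adjusted p = 0.220). Without dorDG Sham replicate 2, Adcy1 was called (−1.72, edgeR adjusted p = 0.170), as were 7.99% of all genes. Adcy8 was at −0.06 ± 0.38, from −0.74 in dorDG and −0.72 in venDG.

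These genes also differed by the reaction a cell came from. The labels split 8 replicates into 2 reactions, numbered here as first and second in the order of the reaction names. The low-ribosomal share was 4.08 to 15.5% in first and 78.3 to 95.9% in second reactions. edgeR, with the replicate as a block, called 5 of the 7 tested genes higher in the second reaction. Of all 4378 genes it called 84.1% in either direction, 44.2% higher and 39.9% lower, and the median over all genes was 0.13.

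Pde1a stood at 0.389 to 1.41 UMIs per 10000 in the first and 1.64 to 3.76 in the second reactions, a log2 difference of 1.58 ± 0.19 (edgeR adjusted p = 3.15e-06). Adcy1 stood at 0.0245 to 0.610 and 0.110 to 3.07, higher in the second reaction of 7 of 8 replicates (1.76 ± 0.50, adjusted p = 0.00523). Pde10a was at 1.15 ± 0.20, Adcy8 at 0.87 ± 0.21 and Pde4d at 0.45 ± 0.19, each higher in 8 of 8 replicates. The share of all genes higher in as many replicates was not counted.

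Pde4b and Adcy2 did not pass, at 0.34 ± 0.27 and 0.01 ± 0.16. Pde4b was higher in the second reaction of 6 of 8 replicates, and the 2 exceptions were both dorDG FT replicates with 2 reactions. Pde4a, not tested, was higher in 8 of 8, with medians of 0.126 and 0.439. The genes that separated the reactions most, Adcy1, Pde1a and Pde10a, were also those with the larger ratios between low-ribosomal and other cells. These are not 2 separate observations. Low-ribosomal cells formed 78.3 to 95.9% of second and 4.08 to 15.5% of first reactions, so both contrasts compare largely the same cells.

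**Figure D5:**
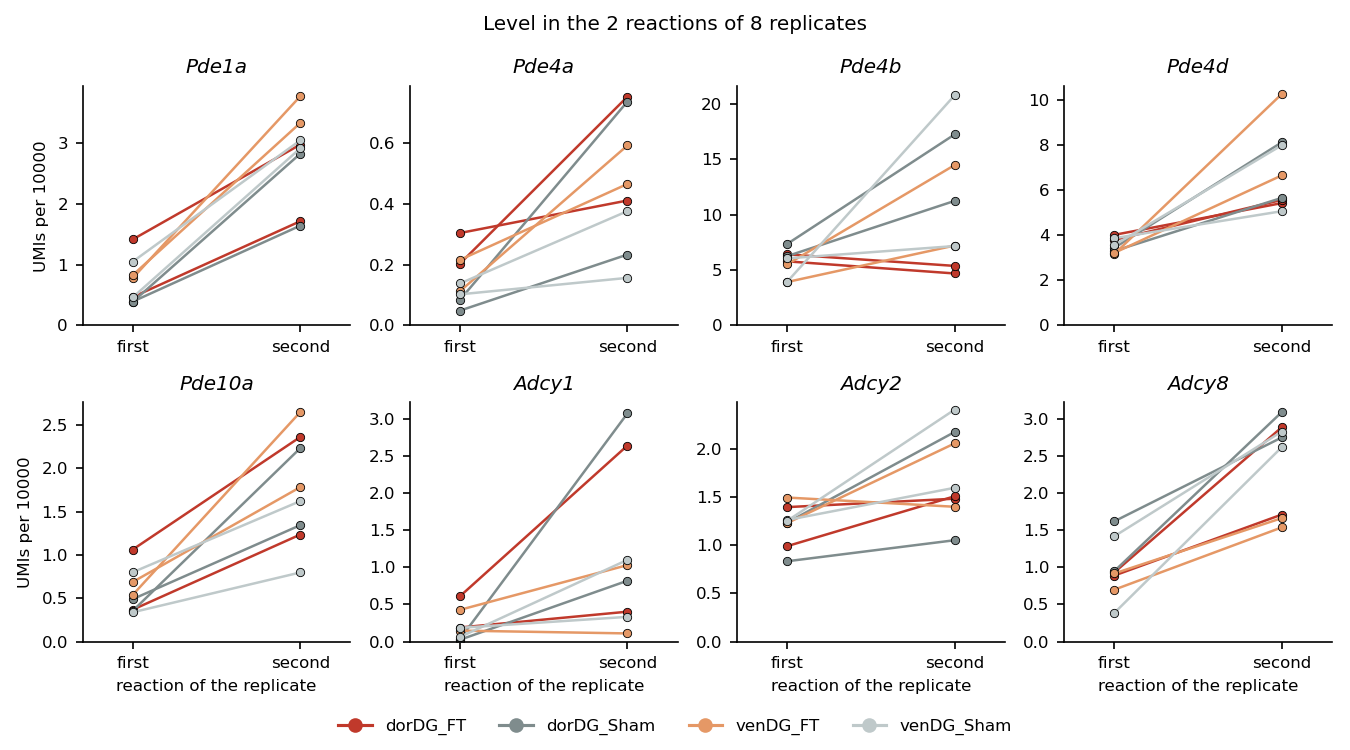
Level of each gene, in UMIs per 10000, in the first and second reaction of the 8 replicates with 2 reactions, joined by a line per replicate and coloured by group. Pde1a rises in 8 of 8 replicates, and Pde4b in 6 of 8, with both dorDG FT lines sloping down.

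Other genes of the pathway were described from a list of 68 made by symbol. In dorDG 31 of them passed the filter, of which 5 rose, 6 fell and 20 did not pass the test, with a median log2 fold change of −0.12. The same rule called 28.6% of all genes tested there, 12.4% higher and 16.1% lower, and the counts by role below stand beside these shares. Among the G proteins 2 of 5 rose. Among the other phosphodiesterases 2 rose and 1 fell of 7, among protein kinase A subunits and inhibitors 1 rose and 2 fell of 4, and among the other cyclases 0 of 3 were called. Of the anchoring proteins 1 of 5 fell, as did 1 of 4 cAMP-responsive factors, and neither of the 2 cGMP genes was called.

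The highest in dorDG were Gnai2, the inhibitory G protein alpha subunit (0.81 ± 0.22, 1.82 ± 0.08 UMIs per 10000 in FT and 1.10 ± 0.30 in Sham), Pde3a, a cGMP-inhibited phosphodiesterase (0.65 ± 0.26), and Prkar1a, a regulatory subunit of protein kinase A (0.64 ± 0.23). The lowest were Prkacb, a catalytic subunit of the kinase (−0.91 ± 0.25, 0.413 ± 0.166 in FT and 0.834 ± 0.134 in Sham), Crtc3, a CREB coactivator (−0.74 ± 0.30), and Akap6, which anchors the kinase (−0.70 ± 0.30). These 6 had edgeR adjusted p of 0.155 to 0.185.

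In venDG 29 of the 68 passed the filter and edgeR called 0, as for all genes there. The highest were Gnai2 (0.29 ± 0.20), Pde6d (0.22 ± 0.39) and Akap6 (0.21 ± 0.28), and among the lowest were Pde1c, a calmodulin-activated phosphodiesterase (−0.50 ± 0.20), and Gucy1a2, a subunit of soluble guanylyl cyclase (−0.42 ± 0.24). Between the regions in Sham rats 0 of 30 were called, where 2.24% of all genes were, Adcy1 among them.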

How the data were processed

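Each region has a deposited table of unnormalised UMI counts, genes by cells, which the authors made with Cell Ranger 2.1.0, with genome build rn5 and Seurat 3 named in the submitters' processing notes. The authors filtered the cells and named dorDG types in an annotation that also lists other per-cell information. From 108 libraries, 27 reactions and 19 replicates were formed by the labels. In venDG, 170 columns with a second suffix that no label explains were left out. No doublet caller was run.

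UMI counts were summed per replicate over all reactions and cells, and tested with the edgeR 4.0.16 quasi-likelihood F-test (R 4.3.3) after TMM scaling. A gene entered when it averaged 0.5 UMIs per 10000 or more, and adjusted p-values are over all of them. Standard errors were obtained as the fold change over the root of F. DESeq2 1.42.0 was an alternative. Types needed 5 cells per replicate and 3 such replicates per group. The region contrasts and the interaction used 1 fit of all 4 groups. P-values measure the spread between pooled replicates, and floors cover counting error only. Scripts were tested on simulated data.

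The authors' log-normalised venDG values were not used. The 8 genes, the wider list (cyclic nucleotide enzymes, G proteins, protein kinase A, Epac, cAMP-responsive factors, anchoring proteins, the cGMP arm and channels) and the markers were chosen with earlier results of these data known. From the wider list the 3 highest and 3 lowest log2 fold changes per region are named, except that one gene of the list is counted in its totals and not reported here, and for likeness the 2 highest r per gene, after adding 0.1 to the levels. Replicates of a group differed beyond counting error in all 36 pairs (chi-square per degree of freedom 2.97 to 17.1). Same-numbered dorDG and venDG replicates correlated in their deviations from group means at 0.181 to 0.556 in Sham (5 pairs) and 0.108 to 0.351 in FT (4 pairs). Different-numbered pairs were not computed, so these values do not show a pairing. The study punched both regions from brains of the same treatment groups and does not state which replicates shared animals. The main region contrasts and the interaction do not model such sharing. Alternatives were another tool, filter and threshold, replicates left out, a replicate block, subsets of cells and single reactions.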

Additional observations from a re-analysis of the deposited data

Results flagged for a closer look

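Levels in groups of 4 or 5 replicates were searched for a single value far from the rest, in 40 groups, of which chance flags about 1 in 20. Among them 2 stood apart. Pde10a in dorDG FT replicate 2 was at 1.36 UMIs per 10000 where the other 3 FT replicates lay between 0.428 and 0.510, and without that replicate the log2 fold change went from −0.80 to −1.37. Pde4d in InhibNeuron cells of dorDG Sham replicate 4 was at 3.59 where the other 3 lay between 6.85 and 7.41, with 48 UMIs behind it.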

How the results depend on the processing

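Counts of called genes moved most in dorDG, where 3 of the 8 were called in FT against Sham. The count was 0 with a filter of at least 10 UMIs in place of the mean level, at an adjusted p of 0.05, with the replicate number as a block, among cells with at least 2% or under 2% ribosomal UMIs, and in the first or the second reactions only. It was also 0 in the pooled neuronal types, in the other types pooled and without InhibNeuron cells, and these last 5 were chosen after the data were seen. Of all genes, these settings called 0.201% with the filter of 10 UMIs, 0.525% under 2% ribosomal UMIs and 0.0663% in the second reactions. In the other settings named they called 0%, against 28.6% in the main fit. Omitting single replicates gave 0 to 5, where 0 to 45.5% of all genes were called. In the labels, same-numbered FT and Sham replicates share only a number. The study states for its bulk tissue that Sham and FT of the same replicate were handled in parallel. It does not say so for the single-cell replicates. The r of their deviations was −0.217 to 0.371 in dorDG and −0.142 to 0.271 in venDG. The block took all calls in dorDG, from 1221 genes to 0. For dorDG against venDG in Sham the count went from 1 to 2 with DESeq2 and under either block, to 0 at an adjusted p of 0.05 and in either ribosomal subset, and from 0 to 2 with single replicates omitted. The share of all genes called there was 2.24% in the main fit, 5.02% with DESeq2, and 2.74% and 11.9% under the blocks. It was 0% at 0.05 and with at least 2% ribosomal UMIs, 1.04% under 2%, and 0 to 11.4% with single replicates omitted. For the interaction the count was 1 under the block within treatment and 0 to 1 with single replicates omitted, where 9.2% and 0 to 7.99% of all genes were called. Within types it was 1 with DESeq2, 1 with a block (Pde4b in Granule) and 0 to 1 with single replicates omitted (Pde4b in Oligodend1, without FT replicate 2). The shares of all genes called within types under the block and the omissions are not given here.

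Values that changed sign were mostly near 0, and the cause was not tested. For FT against Sham in dorDG they were Adcy2 with the filter of 10 UMIs (0.012), in cells with at least 2% (0.050) and under 2% ribosomal UMIs (0.019), in the first reactions (0.080) and in the other types (0.13). Pde1a was at 0.24 in cells with at least 2%, 1.14 in the first and 0.061 in the second reactions, Pde4d at 0.076 in cells with at least 2% and 0.088 in the first reactions, and Pde10a at 0.65 in the first and 0.052 in the second reactions. In venDG they were Pde4b with the filter of 10 UMIs (0.099) and in cells with at least 2% (0.22), Pde4d with that filter (0.10), with the block (0.025), under 2% (0.42), with the second-suffix columns kept (0.020) and in the second reactions (0.39), and Adcy2 with that filter (0.034) and in the first reactions (0.073). Between the regions in Sham they were Adcy2 with DESeq2 (−0.041), with that filter (−0.053), in cells with at least 2% (−0.11) and under 2% (−0.12), Pde4d with at least 2% (−0.020), and Pde1a (−0.058), Pde4b (−0.019) and Adcy8 (−0.28) under 2%. Between the regions in FT they were Pde4d (0.010) and Adcy8 (0.00077) with the block, Pde4b with the block within treatment (0.041), Pde4d (0.22), Pde10a (0.23) and Adcy8 (0.043) with at least 2%, and Adcy8 under 2% (0.21). For the interaction they were Pde4d (0.24) and Adcy2 (0.093) with at least 2%, and Adcy2 (0.081) and Adcy8 (0.49) under 2%. Between reactions it was Adcy2 with DESeq2 (−0.023), with that filter (−0.088) and with the second-suffix columns (−0.027).

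With single replicates omitted, these ranged across 0: in dorDG, Adcy2 from −0.16 to 0.037; in venDG, Pde1a from −0.052 to 0.24, Pde4b from −0.29 to 0.12, Pde4d from −0.11 to 0.092 and Adcy2 from −0.16 to 0.026. Between the regions in Sham, Adcy2 ranged from −0.13 to 0.11 and Adcy8 from −0.11 to 0.25, and in FT, Pde4b from −0.38 to 0.013, Pde4d from −0.089 to 0.068, Adcy2 from −0.12 to 0.059 and Adcy8 from −0.17 to 0.13. For the interaction Adcy2 ranged from −0.14 to 0.094 and Adcy8 from −0.26 to 0.10, and between reactions Adcy2 from −0.049 to 0.063. Pde4a and, in venDG, Adcy1 were limited by depth, with 69 to 132 UMIs of Pde4a in a group and 105 of Adcy1 in venDG Sham.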
